A study of Rattus norvegicus with 30 samples.

Results

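Mitochondrial ribosomal proteins are made from nuclear genes, imported into mitochondria and built there into the small and large subunits of the mitoribosome. Their genes were taken as the rows of the FPKM table whose symbol is Mrpl or Mrps followed by a number and at most 1 letter, which gave 69 of 17353 gene rows. Of these, 65 had a mean of at least 1 FPKM (sequenced fragments counted per kilobase of a transcript and relative to all mapped fragments in that library) over all libraries and were tested. The other 4 were not: Mrpl30, Mrpl36 and Mrpl53 are listed at 0 in all 30 libraries, and Mrpl1 is listed at 0 in 24 of them and did not exceed 0.252 FPKM. All libraries came from total RNA of the REF line of rat embryonic fibroblasts, a line labelled as carrying no transformation. The control group was not starved of serum, and 9 groups were starved for 2, 3, 4, 6, 8, 10, 12, 14 or 16 days, with 3 biological replicates in each of the 10 groups. Fibroblasts without serum stop dividing and enter quiescence, and the series asks how expression goes on changing as starvation lengthens. Loss of serum and exit from the cycle were not separated by any group, so at every day they cannot be told apart.

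The mitoribosome translates the few proteins that mitochondrial DNA encodes, all of them subunits of the respiratory chain and the ATP synthase. Part of its proteins descend from the bacterial ribosome, and the rest were added in mitochondria and largely cover the shortened ribosomal RNAs. Its ribosomal RNAs come from mitochondrial DNA and its proteins from genes spread over the nucleus, so building it draws on both genomes.

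Read depth was not given. FPKM sums were 582501 to 785072 per library, and 9875 to 10580 genes were above 0. The libraries numbered replicate 1 stood apart: they listed 10361 to 10580 genes above 0 and the others 9875 to 10192, so the counts for day 2, day 8, day 16, the slope and the F test are also given without them. Of 12 fibroblast markers 7 averaged at least 1 FPKM, and Col1a2 is listed at 0 throughout. The summed fibroblast markers ran from 15711 to 18050 FPKM in the control libraries and from 12920 to 31114 in the starved ones. Macrophage, endothelial and adipocyte markers averaged under 1 FPKM for every gene, the macrophage sum being 7.11 to 7.40 FPKM in control and 0.245 to 2.16 in starved libraries. Of 7 skeletal muscle markers 3 reached 1 FPKM, with a sum of 315 to 337 FPKM in control and 23.2 to 168 in starved libraries. Of 7 epithelial markers 1 did (10.9 to 12.9 and 20.3 to 75.8), with Krt19 at 0. Of 5 neural markers 2 did (7.25 to 9.94 and 5.36 to 19.6), with Rbfox3 and Sox10 at 0. The part of these other markers in the results was not tested. In RNA from whole cultures, fewer cells expressing a gene and less RNA per cell cannot be told apart.

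After 2 days without serum most mitochondrial ribosomal protein genes were lower. Of the 65 tested genes 52 fell and 1 rose, while over all 8940 genes tested 30.7% fell and 30% rose. The median log2 change of the 65 genes was -0.52, beside 0.00 for all genes. Most falls were modest: one of at least 2-fold was seen in 9 of the 65 genes (8.43% of all genes). The 3 day 2 libraries lay below the 3 control libraries without overlap for 56 genes and above them for 1 gene, Mrpl52 (32.4% and 30.6% of all genes). Without the replicate 1 libraries 48 fell and 1 rose.

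The largest fall at day 2 was that of Mrpl42, a protein of the large subunit with no bacterial counterpart. Its FPKM was 91.3, 95.2 and 111 in the 3 control libraries and 32.5, 37.7 and 43.5 at day 2, a log2 change of -1.37 ± 0.20 (SE), 2.58-fold lower (adjusted p = 2.27e-06). Over all 27 starved libraries it ran from 25.8 to 46.5 FPKM, below every control library. Mrpl12 forms the flexible stalk of the large subunit, which recruits translation factors, and also binds the mitochondrial RNA polymerase. It was at 83.9, 65.9 and 68.00 FPKM in control and 29.2, 28.5 and 28.01 at day 2 (-1.31 ± 0.12, adjusted p = 3.94e-10), with no starved library above 45.8. Its course was not flat afterwards: the day 12 libraries read 45.8, 39.6 and 38.6 FPKM and those of day 16 read 29.3, 21.9 and 26.1, and the F test across the 9 starved groups passed (adjusted p = 0.00013).

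In the small subunit Mrps10, Mrps22 and Mrps12 fell furthest. Mrps10, of the bacterial S10 family in the head of the subunit, read 17.6, 16.7 and 24.9 FPKM in control and 7.15, 8.51 and 6.60 at day 2 (-1.29 ± 0.24, adjusted p = 5.4e-05). Mrps22, a protein added in mitochondria, read 46.4, 44.7 and 42.5 FPKM in control and 18.2, 22.3 and 19.4 at day 2 (-1.12 ± 0.12). All 27 of its starved libraries lay between 15.2 and 22.3 FPKM, below every control library, and no difference among the starved groups passed (adjusted p = 0.832). Mrps12, of the S12 family at the decoding centre, read 111, 73.9 and 78.8 FPKM in control and 46.6, 36.3 and 37.2 at day 2 (-1.10 ± 0.16, adjusted p = 2.66e-06). In the large subunit Mrpl21 fell by 1.12 on the log2 scale, the third of its falls in size, from 50.6 ± 4.999 to 22.7 ± 2.90 FPKM (mean ± SD, n = 3). For these 6 genes the control and day 2 libraries did not overlap.

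**Figure D1:**
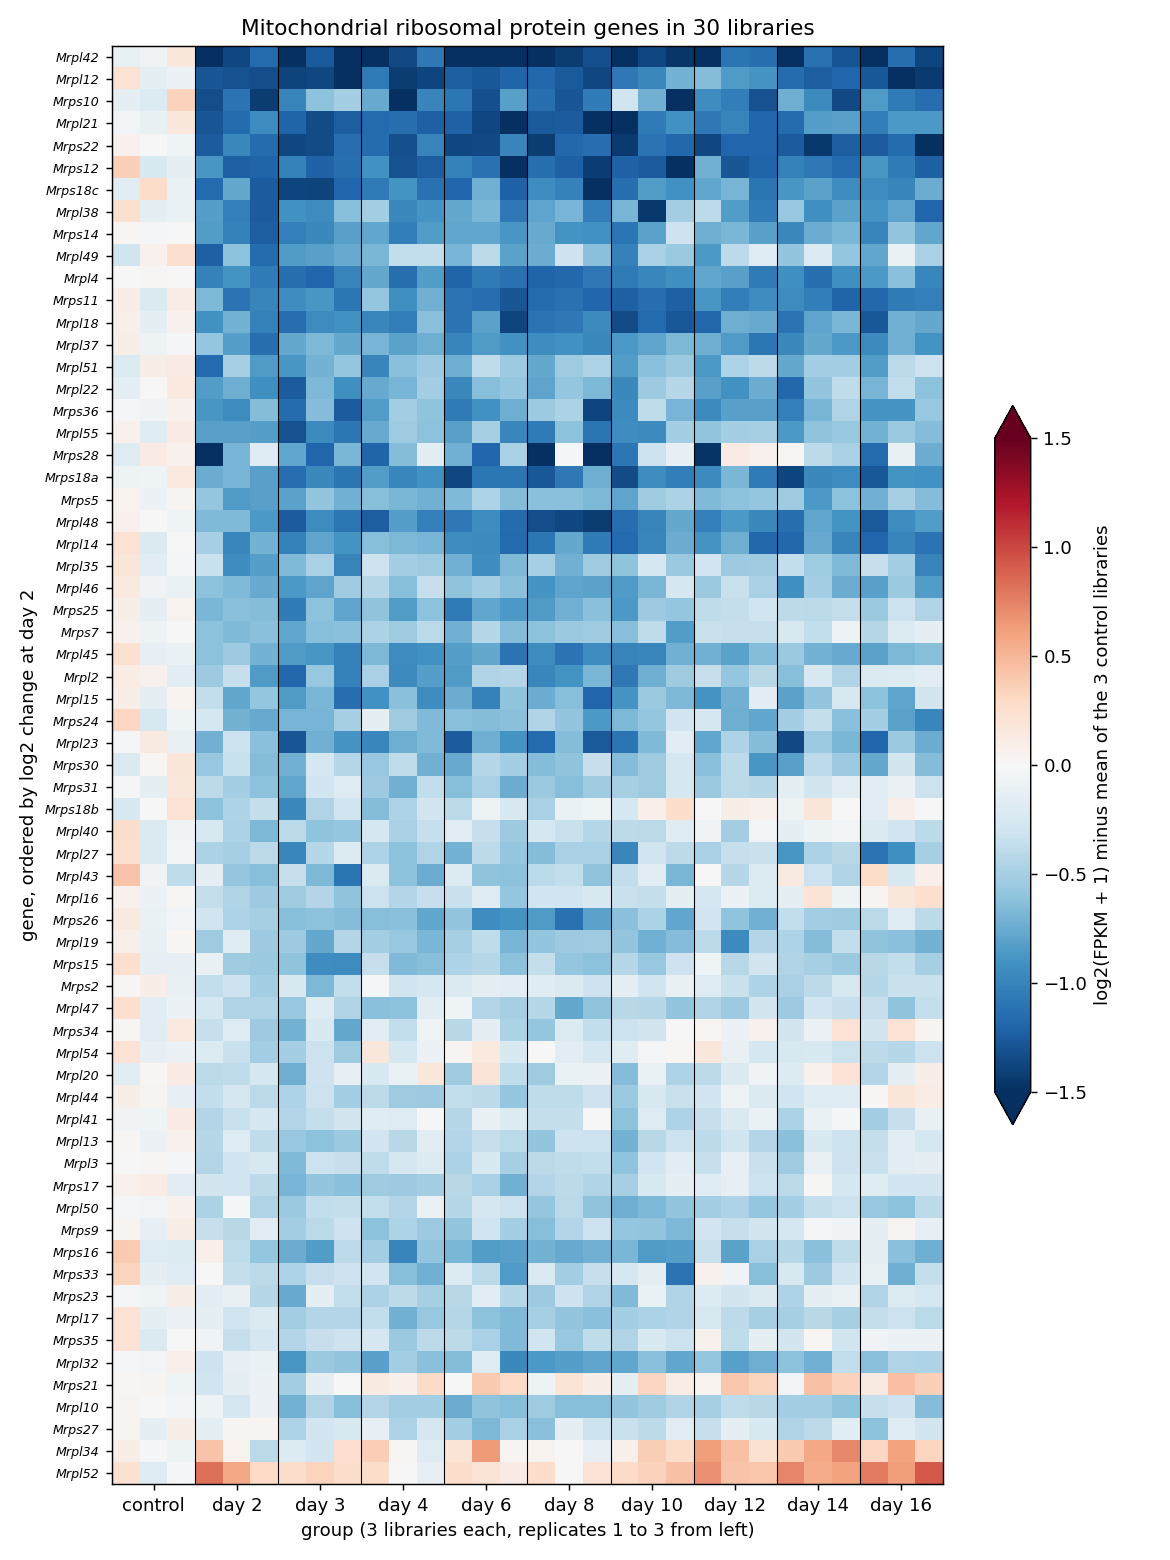
Each row is 1 of the 65 tested genes, ordered by its change at day 2, and each column 1 library, in groups of 3 from control to day 16. Colour is log2(FPKM + 1) minus the control mean of that gene, and values beyond the ends of the scale take the end colour. The starved columns are blue for most rows from day 2 on, and the Mrpl52 row at the bottom is red at day 2 and day 16.

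Mrpl52, a large-subunit protein with no bacterial counterpart, was the 1 gene that rose. It read 74.9, 55.9 and 62.5 FPKM in control and 114, 96.3 and 78.9 at day 2, a log2 change of 0.57 ± 0.12 (adjusted p = 0.000248). The 12 genes that did not pass at day 2 included Mrps27 (-0.02 ± 0.12), Mrpl34 (0.02 ± 0.18), Mrps21 (-0.18 ± 0.14), Mrpl10 (-0.14 ± 0.08) and Mrpl32 (-0.18 ± 0.13). Mrpl10 anchors the stalk that Mrpl12 forms. Their values, from 37.6, 36.5 and 35.4 FPKM in control to 34.6, 30.5 and 34.3 at day 2 for Mrpl10 and from 83.9, 65.9 and 68.00 to 29.2, 28.5 and 28.01 for Mrpl12, show unequal changes of the pair. In Mrpl10 and Mrpl32 all 3 day 2 libraries were below all control libraries, although neither passed. The difference between the genes was not tested.

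The 3 genes with the highest mean FPKM over all libraries were Mrpl54 (276), Mrps21 (196) and Mrpl23 (141), and the 3 lowest among those tested were Mrps28 (3.01), Mrpl40 (4.92) and Mrpl47 (7.36). Mrpl54, a large-subunit protein added in mitochondria, read 358, 284 and 291 FPKM in control and 267, 246 and 214 at day 2, and its fall of -0.36 ± 0.12 (adjusted p = 0.0144) lost its call with quantile or upper quartile scaling and without control replicate 1 or day 2 replicate 3 (adjusted p 0.0905 to 0.153). Mrpl23, at the exit of the peptide tunnel, read 221, 248 and 209 FPKM in control and 136, 181 and 145 at day 2 (-0.56 ± 0.22, adjusted p = 0.0339), and its call ended when control replicate 1, control replicate 2, day 2 replicate 1 or day 2 replicate 3 was left out (adjusted p 0.059 to 0.109). Mrps28, the lowest, was uneven even within groups: it read 4.02, 5.27 and 4.996 FPKM in control and 0.967, 2.52 and 4.02 at day 2, and passed only without day 2 replicate 3 (-0.81 ± 0.43 with all libraries). Mrpl40 and Mrpl47 fell by less (-0.46 ± 0.14 and -0.39 ± 0.14), and both calls were lost without control replicate 1 (adjusted p = 0.0567 and 0.155), that of Mrpl47 also without day 2 replicate 2 or 3 (0.0703 and 0.0702). Mrpl3, near the peptidyl transferase centre, fell by 0.32 on the log2 scale, a call lost without day 2 replicate 1 (adjusted p = 0.0713).

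By class, falls at day 2 were found in all 4 classes of mitoribosome proteins. Over all genes tested 30.7% fell and 30% rose. Among bacterial-type proteins of the large subunit 17 of 21 fell, with a median log2 change of -0.46, and among its mitochondria-specific proteins 15 of 17 fell and 1 rose (median -0.63). In the small subunit 12 of 15 bacterial-type proteins fell (median -0.63) and 6 of 10 mitochondria-specific ones (median -0.39). Mrps36 and Mrpl55 were placed in no class. Differences between the classes were not tested. Some symbols do not name the subunit that holds the protein. Mrps30 and Mrps18a sit in the large subunit, and Mrps36 is now known as a protein of the 2-oxoglutarate dehydrogenase complex. All 3 fell at day 2, Mrps30 by 0.52, Mrps18a by 0.75 and Mrps36 by 0.82 on the log2 scale. Mrps36 read 40.3, 39.1 and 42.7 FPKM in control and 21.8, 20.7 and 25.6 at day 2, and 21.5, 21.6 and 27.03 at day 16.

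**Figure D2:**
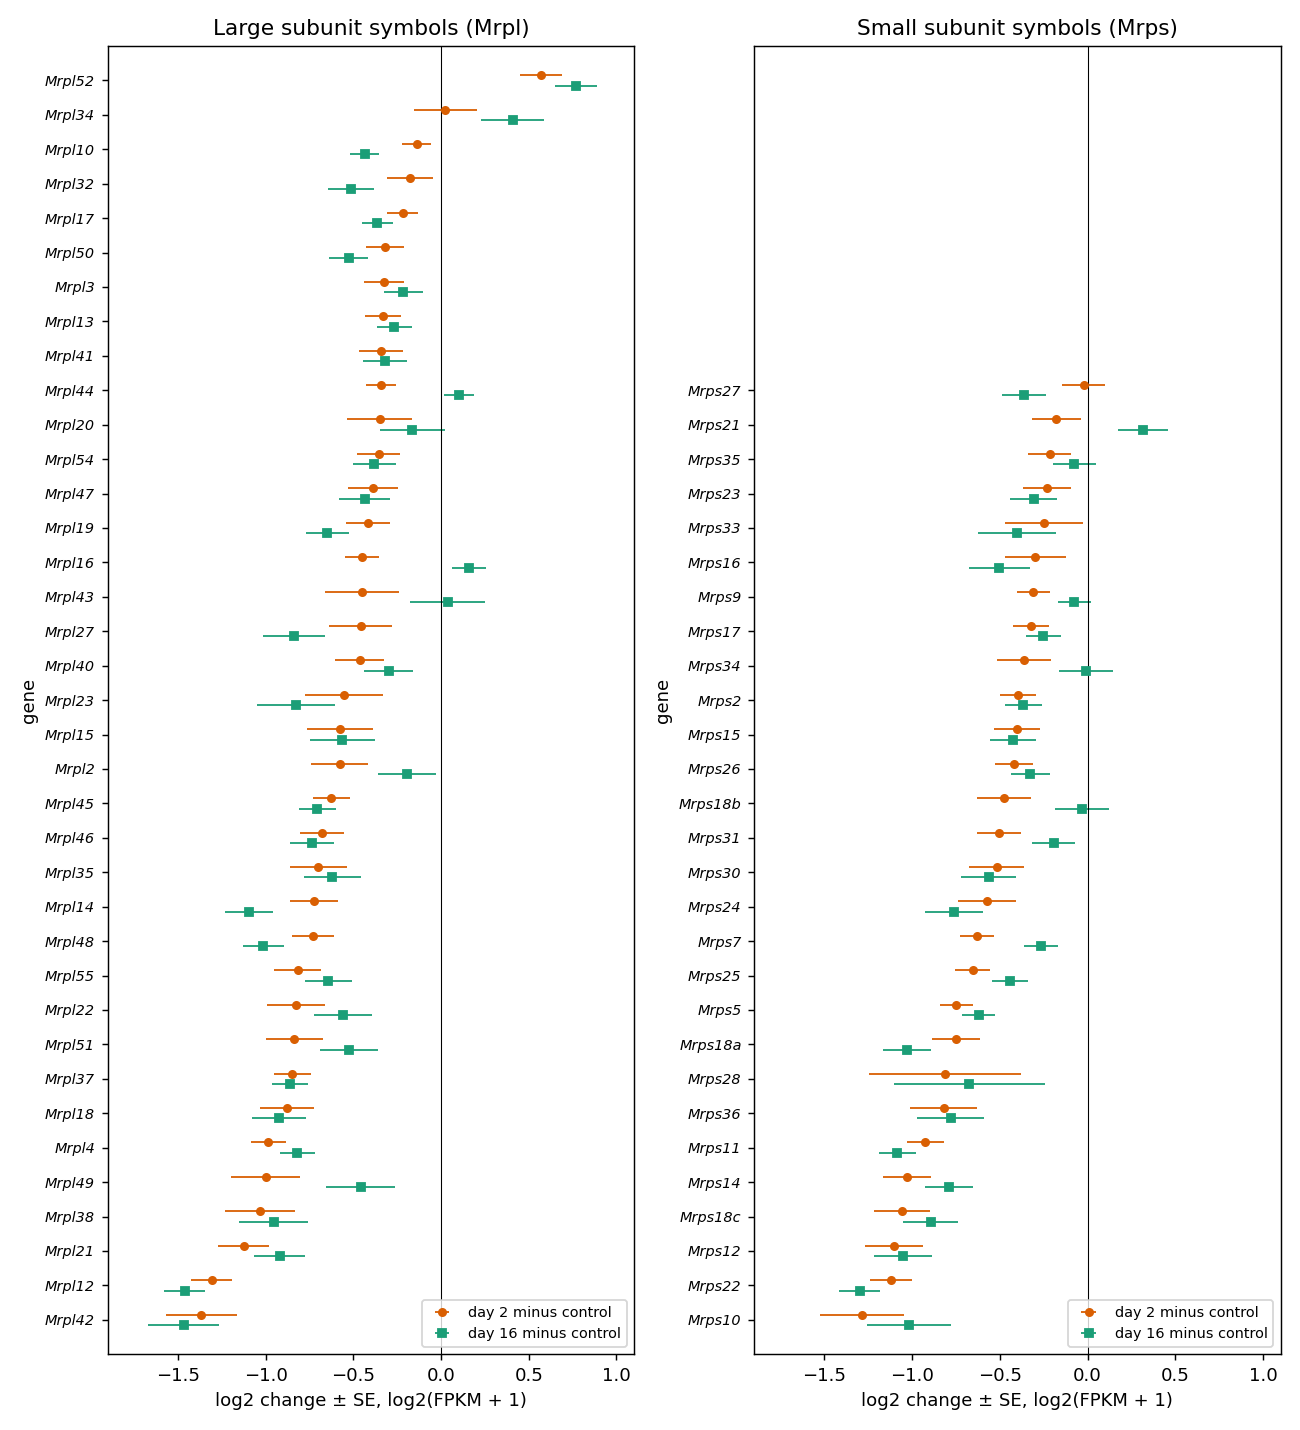
Log2 change ± SE of each of the 65 tested genes at day 2 (circles) and day 16 (squares), each against control, with Mrpl symbols on the left and Mrps symbols on the right, ordered by the day 2 change. Mrpl42, Mrpl12, Mrps10 and Mrps22 lie furthest to the left, and Mrpl52 lies to the right of 0 on both days. The 2 comparisons share the control libraries.

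Promoter sequences of 4 of these genes that moved differently are shown: Mrpl42 and Mrps10 fell most in their subunits, Mrpl52 rose, and Mrps18b fell and came back. The promoters of Mrpl12 and Mrpl34 were picked with them but are not printed. They held none of the 4 strings below, so only promoters with a match are shown. Each runs 5′ to 3′ from 250 bases before to 50 after the annotated start, from RefSeq on the GRCr8 build, which is not the build of the expression table. Capitals mark exact matches, on either strand, to 4 short strings: the NRF1 core GCATGCG, the ETS core CCGGAAG (the class of the nuclear respiratory factor GABPA), the YY1 core AAGATGG and the E-box CACGTG (bound by MYC among others).
Mrpl42 (GRCr8 chr7:32028473-32028772, strand -): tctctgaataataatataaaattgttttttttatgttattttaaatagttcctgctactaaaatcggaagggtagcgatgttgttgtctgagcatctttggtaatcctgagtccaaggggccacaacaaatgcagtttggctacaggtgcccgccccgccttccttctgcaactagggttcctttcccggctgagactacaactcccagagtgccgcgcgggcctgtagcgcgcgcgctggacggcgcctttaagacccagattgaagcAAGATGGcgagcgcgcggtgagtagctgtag
Mrps10 (GRCr8 chr9:21122404-21122703, strand -): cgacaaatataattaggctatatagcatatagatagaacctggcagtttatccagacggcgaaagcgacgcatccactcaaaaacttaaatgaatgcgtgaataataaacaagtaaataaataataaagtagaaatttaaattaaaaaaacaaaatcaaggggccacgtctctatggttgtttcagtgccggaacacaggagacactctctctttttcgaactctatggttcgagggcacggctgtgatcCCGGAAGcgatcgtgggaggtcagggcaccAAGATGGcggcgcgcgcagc
Mrpl52 (GRCr8 chr15:31852686-31852985, strand +): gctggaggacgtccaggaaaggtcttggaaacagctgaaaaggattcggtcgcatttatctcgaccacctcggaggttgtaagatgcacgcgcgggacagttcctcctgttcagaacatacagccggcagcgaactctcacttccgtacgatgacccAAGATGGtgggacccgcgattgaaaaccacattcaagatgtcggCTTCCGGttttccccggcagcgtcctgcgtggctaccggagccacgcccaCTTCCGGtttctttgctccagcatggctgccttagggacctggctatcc
Mrps18b (GRCr8 chr20:2842756-2843055, strand +): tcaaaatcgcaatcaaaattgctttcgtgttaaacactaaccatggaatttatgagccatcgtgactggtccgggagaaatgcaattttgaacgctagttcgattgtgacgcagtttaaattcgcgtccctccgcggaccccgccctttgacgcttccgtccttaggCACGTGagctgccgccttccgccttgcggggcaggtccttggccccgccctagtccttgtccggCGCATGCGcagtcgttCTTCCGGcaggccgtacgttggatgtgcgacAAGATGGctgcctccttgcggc
In Mrpl42 the marked YY1 core begins at base 20 from the start. Mrps10 holds an ETS core at base 1 and a YY1 core at base 31. Mrpl52, the gene that rose, holds a YY1 core at base -93 and the ETS core on the reverse strand at bases -49 and 2. Mrps18b holds all 4 strings, with the NRF1 core on both strands in 1 overlapping run. Promoters were found by symbol for 54 of the 69 genes. The ETS core stood in 18 of the 54 (33.3%), beside 9.22% of all 27457 promoters in the table, and the YY1 core in 15 (27.8%), beside 7.30%. The NRF1 core and the E-box stood in 6 each (11.1%), beside 3.54% and 6.65%. At least 1 of the 4 was present in 31 of the 54 promoters and in 23.3% of all promoters. The other 23 of the 54, Mrpl12 and Mrpl34 among them, held none. Of the 40 promoters whose genes fell at day 2, 11 held the ETS core and 11 the YY1 core, and of the 9 whose genes did not pass, 3 and 2 did. The promoters of all genes were not restricted to genes expressed here, so the shares are not matched for expression. A match of letters is not a shown binding site.

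Between day 2 and day 16 the median of these genes stayed below control in every library. Taking in each library the median of the 65 log2 differences from the control mean, the 3 day 2 libraries lay between -0.62 and -0.47 and those of day 3 between -0.78 and -0.62. The mean of the 3 libraries was -0.53 ± 0.08 (SD) at day 2 and -0.68 ± 0.09 at day 3, the lowest of the 9 means. Day 4 followed with -0.59 ± 0.04, day 6 with -0.61 ± 0.10, day 8 with -0.62 ± 0.02 and day 10 with -0.58 ± 0.09. The last 3 time points had means of -0.46 ± 0.01 (day 12), -0.49 ± 0.04 (day 14) and -0.50 ± 0.07 (day 16). The genes together held 0.553% to 0.616% of the FPKM sum in control libraries and 0.358% to 0.445% in starved ones. All 9 starved group means were below control for 56 of the 65 genes, and all 27 starved libraries were below the lowest control library for 37. For these counts the share over all genes was not computed, so they are given as a description only. Against control, 59 genes fell and 1 rose at day 3 (33.5% and 31.6% of all genes), 55 fell and 0 rose at day 4 (32.8% and 30.8%), and 54 fell and 0 rose at day 6 (33.5% and 32.9%). At day 8, 56 fell and 0 rose (34.5% and 33.4%), at day 10, 55 fell and 1 rose (34.1% and 33.2%), at day 12, 46 fell and 2 rose (34.9% and 31.5%), and at day 14, 47 fell and 2 rose (35% and 31.4%). The genes that rose were Mrpl52 at days 3 and 10, and Mrpl52 and Mrpl34 at days 12 and 14. These comparisons share the 3 control libraries.

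**Figure D3:**
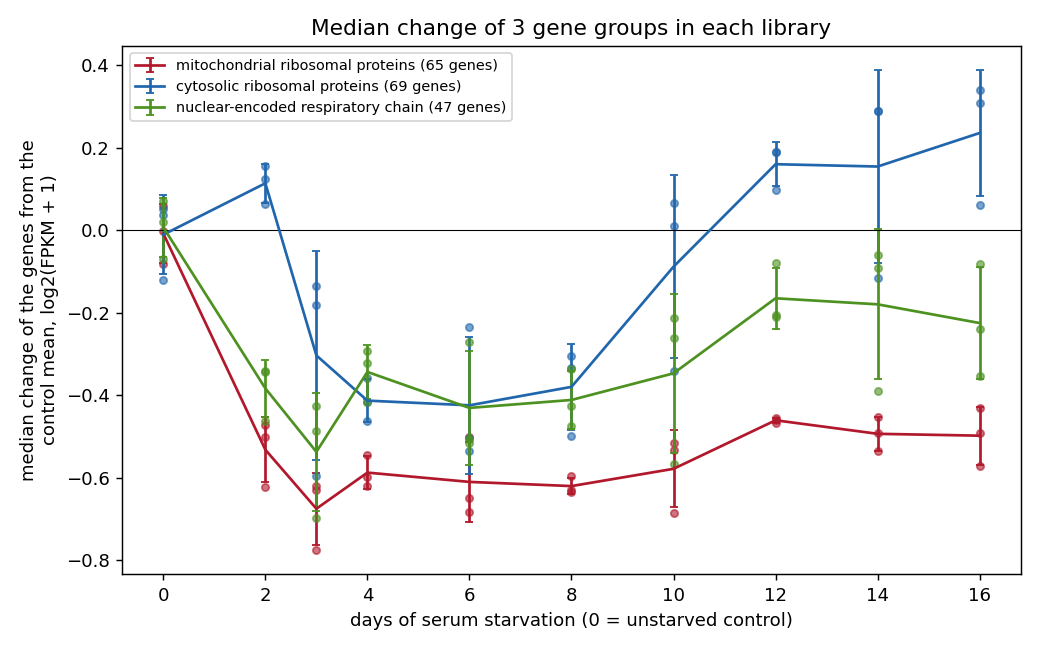
Median over the genes of a group of the log2(FPKM + 1) difference from the control mean, for 1 library per point, with the mean ± SD of each group of 3 as lines, against days of starvation. The 65 mitochondrial ribosomal protein genes stay between -0.78 and -0.43 from day 2 to day 16, while the 69 cytosolic ribosomal protein genes go below 0 from day 3 to day 8 and lie above it at day 16.

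Single steps between neighbouring time points moved few of these genes. From day 2 to day 3, 5 fell and 0 rose (8.58% and 7.83% of all genes): Mrpl32 (-0.49 ± 0.13), Mrpl10 (-0.46 ± 0.08), Mrps15 (-0.43 ± 0.13), Mrpl48 (-0.36 ± 0.12) and Mrps17 (-0.32 ± 0.10). From day 3 to day 4 only Mrpl55 passed (0.48 ± 0.13, where 1.67% of all genes rose and 1.72% fell), from day 4 to day 6 only Mrps11 (-0.44 ± 0.11, where 6.52% fell and 3.39% rose), and from day 14 to day 16 only Mrpl44 (0.33 ± 0.09, where 1.12% rose and 0.817% fell). Mrps15, Mrps17 and Mrpl55 are named here after their values were seen. In the 4 steps between days 6, 8, 10, 12 and 14 limma called 0 of the 65 genes, and 1, 3, 6 and 3 of them had an unadjusted p under 0.05. Of all genes 0.716% rose and 0.727% fell from day 6 to day 8, 1.19% and 0.336% from day 8 to day 10, 1.23% and 2.14% from day 10 to day 12, and 1.16% and 2.42% from day 12 to day 14.

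Over the early course, day 8 against day 2, 8 genes fell and 0 rose (18.4% and 17.4% of all genes), with a median log2 change of -0.11 that came to -0.01 when libraries were rescaled to the same FPKM sum. That rescaling moved the median of all genes by 0.10 and the calls to 5 up and 4 down. Without the replicate 1 libraries 8 fell and 2 rose. The day 8 libraries lay below those of day 2 without overlap for 11 genes and above them for 2, Mrpl16 and Mrps21 (23.5% and 22.9% of all genes). Mrpl32, which is cleaved by the m-AAA protease before it joins the ribosome, fell after day 2: it read 51.3, 51.02 and 55.3 FPKM in control, 42.1, 48.2 and 48.8 at day 2, 28.3, 35.5 and 34.4 at day 3 and 28.6, 29.3 and 29.9 at day 8 (-0.64 ± 0.13 from day 2, adjusted p = 0.000329). Mrpl10 followed the same order, with 24.9, 23.03 and 23.1 FPKM at day 8 (-0.47 ± 0.08). Mrpl48, a large-subunit protein added in mitochondria, fell in both steps, from 39.7, 37.9 and 36.4 FPKM in control to 23.6, 23.6 and 20.4 at day 2 and 14.6, 14.1 and 13.5 at day 8 (-0.64 ± 0.12 from day 2, adjusted p = 0.000109). Mrps26 fell by 0.51, Mrpl52 by 0.41 and Mrpl45, which holds the ribosome at the inner membrane, by 0.37 on the log2 scale. The Mrpl52 call was lost without day 2 replicate 1 (adjusted p = 0.0911), without day 8 replicate 2 (0.0627) and with the sum rescaling (0.146), which also ended that of Mrpl45 (0.111).

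Over the late course, day 16 against day 8, 14 genes rose and 0 fell (15.8% and 14.4% of all genes), with a median log2 change of 0.14 that turned to -0.02 when libraries were rescaled to the same FPKM sum. That rescaling moved the median of all genes by -0.16 and left 5 genes up and 3 down. The count was 6 without day 16 replicate 2 and 9 without day 16 replicate 3, and it was 14 without the replicate 1 libraries. The day 16 libraries lay above those of day 8 without overlap for 20 genes and below them for 3, Mrpl54, Mrps2 and Mrpl19 (22.1% and 24% of all genes), the last 2 of which were named after their values were seen. Mrpl2, next to the peptidyl transferase centre, read 19.5, 20.6 and 24.1 FPKM at day 8 and 33.5, 34.04 and 35.1 at day 16 (0.66 ± 0.16, adjusted p = 0.00318), with control at 42.5, 41.1 and 34.7. Mrpl44, which has an RNase III fold, read 26.9, 26.96 and 28.1 FPKM at day 8 and 35.7, 40.2 and 38.2 at day 16 (0.46 ± 0.09), with control at 37.4, 36.3 and 32.4. Mrpl16, which helps place the transfer RNAs, read 23.6, 23.5 and 24.6 FPKM at day 8 and 30.2, 33.1 and 35.1 at day 16 (0.44 ± 0.10), with control at 30.7, 27.5 and 29.6. For these 3 genes the day 16 libraries overlapped control and the difference did not pass (adjusted p = 0.301, 0.292 and 0.149). Mrpl52 rose by 0.61 and Mrps26 by 0.60, both after falls to day 8. Mrpl21 rose by 0.48 (adjusted p = 0.0152), a call lost without day 8 replicate 3 (0.128) or either of day 16 replicates 2 and 3 (0.0536 and 0.0512), and with the sum rescaling (0.0867).

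At day 16, the longest starvation, 48 genes were lower and 2 higher than in control (35% and 32.4% of all genes), with a median log2 change of -0.51. Without the replicate 1 libraries 39 were lower and 3 higher. The day 16 libraries lay below control without overlap for 48 genes and above it for 3, Mrps21, Mrpl34 and Mrpl52 (36.2% and 34.1% of all genes). The lowest were Mrpl42 (-1.47 ± 0.20), Mrpl12 (-1.46 ± 0.12), Mrps22 (-1.30 ± 0.12), Mrpl14 (-1.10 ± 0.14), Mrps11 (-1.09 ± 0.11) and Mrps12 (-1.05 ± 0.16). Mrpl14, which takes part in a bridge between the subunits, read 137, 101 and 118 FPKM in control and 51.1, 58.7 and 54.1 at day 16. Mrps11, a platform protein of the small subunit, read 56.9, 45.7 and 57.7 and 22.9, 25.2 and 25.5 FPKM. Mrpl52 was higher by 0.77 ± 0.12 (adjusted p = 3.93e-06), at 110.2, 98.9 and 122 FPKM. Mrpl34, a small bacterial-type protein of the large subunit, read 61.1, 56.4 and 54.3 FPKM in control and 71.02, 87.3 and 71.5 at day 16 (0.41 ± 0.18, adjusted p = 0.0469). Its call was lost in 9 alternatives, among them leaving out any 1 of the 6 libraries compared (adjusted p 0.0514 to 0.179). Mrps21, whose bacterial relative is among the smallest ribosomal proteins, read 183, 186 and 173 FPKM in control, 146, 163 and 169.9 at day 2 and 198, 247 and 232 at day 16. Its day 16 libraries lay above control without overlap, and the difference of 0.31 ± 0.14 did not pass (adjusted p = 0.0529) but did with the replicate block (0.00247), with each of the 3 rescalings (0.00217 to 0.0185) and without the replicate 1 libraries (0.000699). The block also brought Mrpl3 and Mrpl40 past the threshold on the lower side at day 16 (adjusted p = 0.0236 and 0.032).

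Fitted as a line over the 27 starved libraries, 20 genes had a rising slope and 1 a falling one (26.6% and 28.9% of all genes), and the median change over 14 days was 0.11, which turned to -0.02 when libraries were rescaled to the same sum, with 11 up and 8 down. Without the replicate 1 libraries the split was 20 and 0. Leaving out day 14 gave 12 up and 2 down, and leaving out day 16 gave 14 and 0. The F test found a difference among the 9 starved groups for 27 of the 65 genes, while it found one for 61.5% of all genes. Without the replicate 1 libraries it found 24. The steepest rises over 14 days were those of Mrps18b (0.62 ± 0.11), Mrpl16 (0.58 ± 0.07), Mrpl43 (0.55 ± 0.13), Mrpl34 (0.53 ± 0.13), Mrpl2 (0.46 ± 0.14) and Mrps34 (0.45 ± 0.11). The slope of Mrpl2 was lost without day 16 (adjusted p = 0.135). Mrpl43, a large-subunit protein added in mitochondria, showed wide replicates: it read 88.5, 63.2 and 50.2 FPKM in control, 51.1, 40.7 and 30.1 at day 3 and 79.4, 55.4 and 69.2 at day 16. Mrpl14 had the falling slope (-0.28 ± 0.10, adjusted p = 0.0165), which was lost in 4 alternatives, among them without the replicate 1 libraries (0.211).

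Mammals have 3 paralogs of bacterial S18 in the mitoribosome. Mrps18a sits in the large subunit, and Mrps18b and Mrps18c in the small one. Mrps18b read 29.8, 35.2 and 40.98 FPKM in control, 22.6, 25.2 and 27.2 at day 2, 29.1, 36.95 and 42.4 at day 10 and 31.3, 36.9 and 34.9 at day 16. It fell at day 2 (-0.48 ± 0.15, adjusted p = 0.0101, lost without control replicate 3 at 0.0695) and at day 16 overlapped control (-0.03 ± 0.15, adjusted p = 0.867). Mrps18a read 81.3, 82.03 and 95.4 FPKM in control, 51.04, 52.6 and 48.5 at day 2 and 35.03, 45.6 and 45.2 at day 16, the last 2.04-fold lower than control (adjusted p = 3.56e-07). Mrps18c read 30.02, 41.5 and 31.5 FPKM in control, 14.7, 19.6 and 13.7 at day 2 and 17.2, 16.6 and 19.8 at day 16 and was 1.86-fold lower at day 16 (adjusted p = 2.09e-05). At day 16 the libraries of Mrps18a and Mrps18c lay below all their control libraries, and those of Mrps18b did not. The differences between the 3 courses were not tested.

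**Figure D4:**
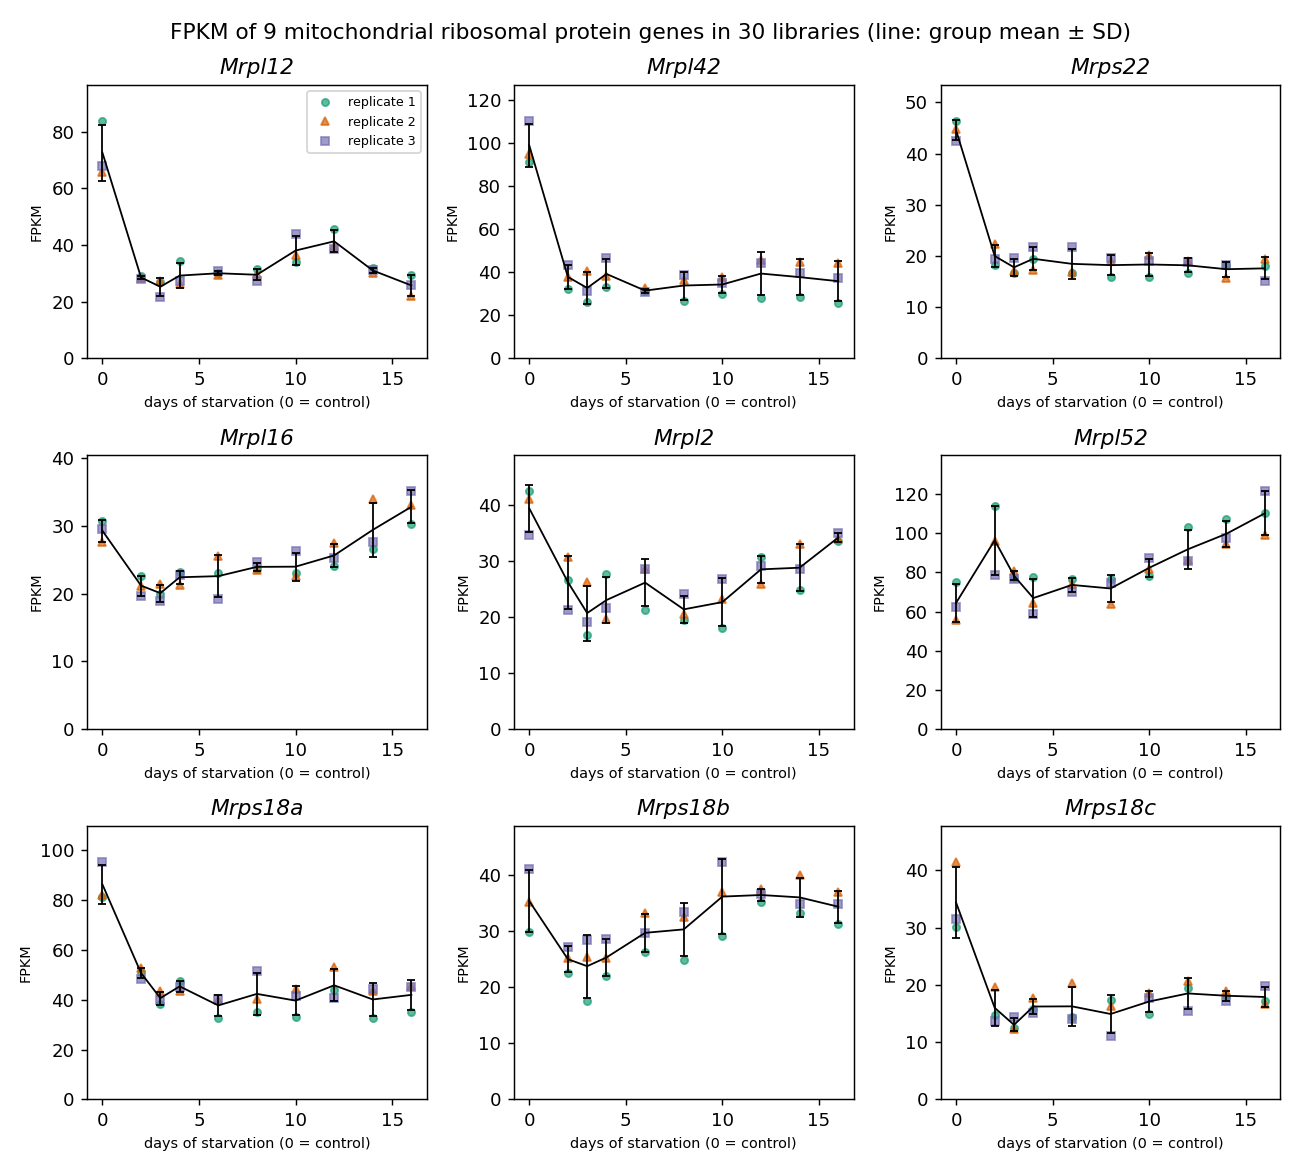
FPKM of 9 genes against days of starvation, 1 point per library, with symbols for the replicate number and lines for the group mean ± SD (n = 3). Mrpl12, Mrpl42, Mrps22, Mrps18a and Mrps18c stay below their control libraries, Mrpl16, Mrpl2 and Mrps18b overlap control at day 16, and Mrpl52 ends above it.

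Over the 10 group means, the course of each gene was set beside the median course of the 65. Here the median course is the median of the 65 log2 levels in each group. It is a different measure from the median of differences given above. Relative to control, its lowest value was -0.71 (day 3), and among starved groups its highest was -0.37 (day 16). The median of the correlations with this course was 0.81, and 37 genes were over 0.8. Each of the 65 genes is itself part of that median course. The share of all genes over 0.8 was not computed, so these correlations are a description only. The 4 lowest were those of Mrpl52 (-0.11), Mrpl34 (0.06), Mrps21 (0.13) and Mrpl54 (0.29). Among the 8875 other genes tested, 61 were over 0.95, and the 10 highest were mrpl11 (0.996), Dctd, Ahcy, Nelfcd, Cluh, Wdr18, B9d2, Psma1, Srp68 and Ogg1 (0.973). The row mrpl11 is itself a mitochondrial ribosomal protein, spelled in lower case and so outside the rule, and Cluh binds messenger RNAs of mitochondrial proteins. The points share the control group, where most of these genes were highest. Over the 9 starved group means alone, the correlations of the 65 genes ran from -0.59 to 0.96. Mrpl52, Mrpl34, Mrps21 and Mrpl54 were then at 0.77, 0.72, 0.66 and -0.10. The mrpl11 row read 64.04, 61.8 and 58.5 FPKM in control and 34.4, 40.5 and 27.4 at day 2. Of the other such rows, mrpl9 (0.17 ± 0.10) and mrpl24 (0.09 ± 0.08) did not pass at day 2, and Mrp63 rose, from 29.5, 22.9 and 27.6 to 42.3, 39.2 and 41.02 FPKM (0.61 ± 0.16, adjusted p = 0.00168).

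Mitoribosome proteins with other symbols were counted separately: 5 of 6 fell at day 2 (30.7% of all genes), with a median log2 change of -0.64. The rows mrpl9, mrpl11, mrpl24 and Mrp63 given above, of which Mrp63 rose, are not among these 6. Ptcd3 fell from 27.7 ± 3.07 to 15.1 ± 1.35 FPKM, Chchd1 from 115 ± 4.96 to 62.2 ± 13.4, and Ict1, a peptide-releasing protein built into the large subunit, from 58.4 ± 2.05 to 35.2 ± 2.43. Dap3, the GTP-binding protein of the small subunit, did not pass at day 2 (-0.16 ± 0.08) and read 48.1, 43.2 and 48.6 FPKM in control, 29.7, 36.5 and 33.98 at day 8 and 27.7, 27.03 and 30.4 at day 16 (-0.70 ± 0.08 from control, adjusted p = 5.97e-08). Of 14 tested mitochondrial translation factors 8 fell and 1 rose at day 2, where 30.7% of all genes fell and 30% rose. Tufm, the elongation factor that brings aminoacyl-tRNA, read 73.1, 77.9 and 82.8 FPKM in control, 42.7, 41.6 and 44.4 at day 2 and 39.1, 49.2 and 42.3 at day 16. Mrrf, which recycles ribosomes after termination, went the other way, with 7.37, 9.03 and 8.27 FPKM in control and 10.6, 13.5 and 13.9 at day 2 (0.56 ± 0.11). Slirp and Lrpprc, partners that stabilize mitochondrial messenger RNAs, changed by -1.06 ± 0.21 and -0.18 ± 0.07, both passing. Of 20 assembly and ribosomal RNA modification genes 9 fell and 2 rose at day 2, with a share of falls nearer to that 30.7% than the ribosomal proteins had. Tfb1m, which methylates the small ribosomal RNA, fell by 0.69 on the log2 scale. Ngrn, needed for the large ribosomal RNA, rose at day 2, from day 2 to day 8 and from day 8 to day 16, and reached 49.1, 51.8 and 53.3 FPKM at day 16 from 14.3, 12.2 and 13.8 in control (3.63-fold, adjusted p = 8.62e-16).

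Transcription regulators linked to mitochondria were lower in part. Of 11 tested 6 fell and 1 rose at day 2, again beside 30.7% and 30% of all genes. Nrf1 read 15.2, 13.1 and 17.2 FPKM in control, 8.16, 8.10 and 6.36 at day 2 and 6.75, 6.95 and 8.67 at day 16 (-0.94 ± 0.17 from control). Gabpa, the ETS-family subunit of the other nuclear respiratory factor, read 10.3, 11.9 and 13.9 FPKM in control and 8.18, 9.84 and 9.91 at day 2 (-0.33 ± 0.14, adjusted p = 0.043), and 7.12, 6.92 and 7.39 at day 16. Its partner Gabpb1 fell by 0.63 on the log2 scale. Tfam, which packs mitochondrial DNA, fell from 23.8 ± 1.39 to 13.6 ± 1.29 FPKM, and the coactivator Pprc1 from 19.01 ± 0.9 to 11.2 ± 0.615. Polrmt, the mitochondrial RNA polymerase that Mrpl12 binds, did not pass (-0.07 ± 0.12). The growth regulator Myc read 13.6, 12.5 and 13.98 FPKM in control, 8.99, 7.06 and 8.63 at day 2 and 3.06, 3.86 and 3.21 at day 16 (-1.72 ± 0.17 from control). Esrra rose at day 2 (0.29 ± 0.11, adjusted p = 0.0293), and Ppargc1a averaged 0.612 FPKM and was not tested. Mitochondrial import proteins, porins and citrate synthase fell in 16 of 16 cases at day 2 (median -0.58, with 30.7% of all genes), with the chaperonin Hspd1 at 312, 311 and 342 FPKM in control and 148, 153 and 159 at day 2. Cs fell by 0.23 and the import receptor Tomm20 by 0.44 on the log2 scale. The library medians of these 16 genes averaged -0.59 ± 0.02 (SD) at day 2, -0.55 ± 0.05 at day 8 and -0.45 ± 0.07 at day 16. Those of the mitochondrial ribosomal proteins averaged -0.53, -0.62 and -0.50 on the same days. The difference was not tested.

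Among the 47 tested nuclear genes of the respiratory chain, 31 fell and 0 rose at day 2 (30.7% and 30% of all genes). Their median log2 change was -0.39. The electron carrier Cycs read 252, 256 and 266 FPKM in control and 86.3, 84.3 and 84.5 at day 2. At day 16 against control 20 were lower and 7 higher (median -0.26, with 35% and 32.4% of all genes), so the share lower was near that of all genes. From day 8 to day 16, 13 rose and 0 fell (15.8% and 14.4% of all genes), which became 3 and 1 with the sum rescaling. The cytosolic ribosomal proteins, whose genes have many near-identical pseudogene copies that make single values uncertain, are set beside them: 15 of 69 rose and 4 fell at day 2 (median 0.14, with 30% and 30.7% of all genes), with 10 up and 9 down after quantile normalization. From day 2 to day 8, 46 of the 69 fell and 0 rose (median -0.49, with 18.4% and 17.4% of all genes), where the mitochondrial ones had a median of -0.11. From day 8 to day 16, 60 rose and 0 fell (median 0.67, with 15.8% and 14.4% of all genes), where the mitochondrial ones had 0.14. At day 16 against control 22 were higher and 3 lower (median 0.23, with 32.4% and 35% of all genes), where the mitochondrial ones had 2 and 48 (median -0.51). The difference between the gene groups was described by these counts and medians and was not tested.

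Of the 68 genes with an entry in the RefSeq table, 14 overlap another protein-coding gene, namely Mrpl10, Mrpl14, Mrpl16, Mrpl22, Mrpl27, Mrpl36, Mrpl37, Mrpl43, Mrpl47, Mrpl48, Mrpl49, Mrpl55, Mrps2 and Mrps12. Overlap was taken from whole gene spans on either strand, introns included. The strand of the libraries is not given in the sources used here, so reads from a shared stretch cannot be assigned by strand. How many reads this touched was not tested.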

How the data were processed

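The deposited table holds FPKM values, which the authors made on the rn6 build, using TopHat2 2.1.1 with Cufflinks and then Cuffnorm 2.2.1, per the submitters' processing notes. Annotation, filters and the scaling between libraries are not given in the sources used here, and without counts the depth of each library is unknown. RNA was checked for quality before sequencing, per the labels' protocols.

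Values were analysed as log2(FPKM + 1) for the 8940 genes with a mean of at least 1 FPKM over the 30 libraries. Changes are on that scale, which understates those of low genes. The tests used limma 3.58.1 (R 4.3.3) and a mean-variance trend: 1 fit of the 10 group means, with 20 residual degrees of freedom, for contrasts and the F test, and a line over the 27 starved libraries, given as the change over 14 days. Tests were two-sided, with Benjamini-Hochberg adjustment over all genes tested and a threshold of 0.05. The fits were tested on simulated data in which libraries were drawn independently. That simulation does not cover same-numbered libraries deviating together. Genes named are, in each main comparison, the 6 largest rises and falls among those called whose mean was 5 FPKM or more, calls against the main direction, the 3 highest and 3 lowest by mean, the 4 least like the median course, and a set list with companions. Mrps6, on that list, was not analysed here. The members and lists were chosen with earlier results of these data known.

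The labels call the replicates biological and do not say what their numbers share. Deviations from the group mean of same-numbered libraries were correlated over genes. For day 2 and control the correlations were 0.592, 0.209 and 0.188, and for day 16 and control 0.440, 0.135 and 0.357. For day 8 with day 2 they were 0.0773, 0.000524 and 0.156, and for day 16 with day 8 0.234, 0.0486 and 0.143. Over all pairs of groups the medians were 0.316, 0.0958 and 0.173 for replicates 1, 2 and 3. No cut-off was set for calling groups paired. The counts, SEs and p-values in Results come from fits without a replicate block unless the block is named. Counts with the block are given in the closing section on processing. Alternatives covered the pseudocount, filter, scaling, replicate block, variance trend, and leaving out libraries or time points.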

Additional observations from a re-analysis of the deposited data

How the results depend on the processing

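Day 2 and day 16 against control kept their direction under all alternatives run, with counts of genes called from 45 to 53 and from 40 to 47 when 1 library was left out. The comparisons within starvation rest on the scaling. For day 8 against day 2 the count was 9 with 5 up and 4 down after rescaling to the same sum, 15 with the replicate block (4 up, among them Mrps18b and Mrps21, and 11 down, among them Mrps18a and Mrpl23), and 7 to 9 when 1 library was left out. For day 16 against day 8 it was 8 after rescaling to the same sum and 6 to 13 when 1 library was left out, 6 without day 16 replicate 2 and 9 without day 16 replicate 3. For the slope it was 19 to 23 and for the F test 23 to 28 when 1 library was left out. The replicate block gave 55 genes at day 2, 20 for day 16 against day 8 and 54 for day 16 against control. It gave 22 for the slope and 36 for the F test. None of these counts was over 1.5 times the count without it. For day 8 against day 2 the 15 genes with the block were over 1.5 times the 8 called without it. Beside Mrps21, Mrpl3 and Mrpl40 at day 16, the block changed no call of a named gene against control. The slope gave 14 genes without day 14 and 14 without day 16, where that of Mrpl12 passed (0.50, adjusted p = 0.0022). Of 2289 values of named genes under alternatives, 53 lost their call, 29 gained one and 0 changed direction while called. Why these values moved was not tested. FPKM without counts sets no limit of detection, so a gene listed at 0 is not shown to be absent.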

Other observations

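Day 16 against day 2 compared the ends of starvation directly. Of the 65 genes 8 rose and 4 fell (20.7% and 20.5% of all genes). The rises were those of Mrps9, Mrps31, Mrps7, Mrps18b, Mrpl44, Mrps21, Mrpl49 and Mrpl16, and the falls those of Mrpl14, Mrps27, Mrpl32 and Mrpl10. Mrps9, Mrps31, Mrps7 and Mrpl49 were named after their values were seen. The lowest starved mean was at day 3 for 21 of the 65 genes, and the highest at day 16 for 17, at days 2 and 12 for 11 each and at day 14 for 10. The matching shares over all genes were not computed, so these counts are given as a description only. The scaling alternatives were not run for day 16 against day 2.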
